A study of Drosophila melanogaster with 32 samples.

Results

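Antisense RNAs were taken as the gene rows of the count files whose FlyBase symbol begins with asRNA: and whose mean level over the 32 libraries was at least 2 counts per 1e+06 assigned reads (CPM). By this rule 303 of 465 antisense RNA rows were kept, out of 17559 gene rows in all. Members were thus chosen by the mean level over all libraries, so that mean is a description, while differences between strains and times were not part of it. Antisense RNAs are transcripts made from the strand opposite to another gene, here called the sense partner. In animals and plants some of them act on their partner, by interfering with its transcription, by recruiting chromatin factors or by pairing with its RNA, and for most annotated antisense RNAs of the fly no function is known. Where exons of both genes cover the same bases, their reads can be told apart only if each read keeps its strand.

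The libraries were made from polyadenylated RNA of male Drosophila melanogaster heads, in pools of about 100 flies. The 4 strains carry the labels hsp70-1c and hsp70-4c, w+hsp70- and hsp70-, and the labels give no further alleles, no fly ages and no account of the training. Flies of hsp70-1c and of hsp70-4c were naive (4 libraries each), or were collected 5 h (3 each) or 24 h (3 each) after training. Flies of hsp70- and of w+hsp70- were naive (3 each) or were collected at 5 h (3 each). Hsp70 is the heat-inducible chaperone, and per the series title the study concerns memory formation, so naive strains were set against one another and trained against naive flies. The summed level of the 6 inducible Hsp70 genes was 3.03 to 6.27 CPM in the libraries of hsp70-4c and at most 0.417 CPM in any other library, and 4 of the 6 genes were at 0 in all 32. How reads that fit several of these genes were counted was not examined. A count of 0 therefore does not show absence of expression.

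Per the FlyBase gene models in the Ensembl BDGP6 annotation (release 115, which uses dm6 coordinates), 302 of the 303 antisense RNA rows shared exon bases with a gene on the other strand, and the remaining row overlapped a gene span only. The partner was protein coding for 302 rows. The 303 rows had 295 different partners, of which 8 were shared by 16 rows, so these rows are not independent of each other. Their exons covered 223 to 7622 bases with a median of 955, and 144 had a single exon. A median of 73.5% of their exon bases lay inside exons of the other strand. This share was under 50% for 82 rows and 95% or more for 38 rows. Chromosome arms 3L, 3R, 2L and 2R held 77, 68, 55 and 53 rows, X held 43 and chromosome 4 held 7. A further 20 of the 303 rows also overlapped a gene on their own strand, and the counts of 12 partners were not analysed here.

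Most antisense RNA rows were low. The median of their mean levels was 12.7 CPM, with 178 rows at 10 CPM or more, 11 at 100 CPM or more and 65 under 5 CPM. Of the 303 rows, 302 had at least 1 read in all 32 libraries. Just inside the limit of the rule lay asRNA:CR45868 (mean 2.25 CPM), asRNA:CR44165 (2.22 CPM) and asRNA:CR44018 (2.2 CPM). Just outside lay asRNA:CR44996 (1.9 CPM), asRNA:CR43971 (1.87 CPM) and asRNA:CR45620 (1.86 CPM). The row with the highest mean level was asRNA:CR45894 (chromosome 3L, 16353498 to 16353916, opposite Pdh, a retinol dehydrogenase gene), at 753 to 1501 CPM over the 32 libraries. Next came asRNA:CR31144 opposite RpL3, a ribosomal protein gene, at 500.2 to 689 CPM. The others of the 10 highest lay opposite CG3164, Rab1 (a vesicle traffic GTPase), CG10527, alphaSnap (membrane fusion), Lsp2 (a larval serum storage protein also made by adult fat body), Nap1 (a histone chaperone), Pdi (protein disulfide isomerase) and Prps (phosphoribosyl pyrophosphate synthetase). Of these 10 partners 7 were analysed, and their mean levels were 222 to 1492 CPM.

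The label of these rows was looked at in rows whose reads cannot be separated from those of other genes by position alone. The kit keeps the strand of the RNA, but the strand setting of the counting is not given in the sources used here. It is therefore not known whether the counts keep reads of a gene apart from those of its antisense partner, and whether the setting matched the kit was not tested. Between 1.06 and 1.45% of the reads in a file were set aside as ambiguous between genes. What this share means for the strand setting was not tested. Among antisense RNA rows of any level, 34 had no exon base outside the exons of other genes, and 22 of these were members. Each of the 22 had at least 6 reads in every library, which the rule on mean level favours. The others fell below the limit, and some had no reads, such as asRNA:CR44872 opposite CG4658 (52.2 CPM). Several of the 22 held about as many reads as the whole partner, although their exons were much shorter. asRNA:CR45875 (1294 exon bases) had a mean of 38.0 CPM against 38.3 CPM for CalpB, a calpain protease gene with 4274 exon bases. asRNA:CR46074 (401 exon bases) had 33.7 CPM against 34.6 CPM for CG13795 (2499 exon bases). asRNA:CR44995 (380 exon bases) had 7.66 CPM against 7.59 CPM for chico, the insulin receptor substrate gene (3578 exon bases). Other pairs did not show this. asRNA:CR44891 had 12.5 CPM inside svr, a carboxypeptidase gene at 108 CPM, and asRNA:CR43430 had 4.90 CPM inside hts, an adducin gene at 78.1 CPM. asRNA:CR45974 had 2.34 CPM inside grim, an activator of cell death, which was nearly silent at 0.00557 CPM.

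Among the members, the share of overlap went with the ratio of reads between the rows of a pair. Among the 232 pairs whose partner had a mean of at least 10 CPM, the median ratio of antisense to partner reads was 0.237 where under 50% of the antisense exon bases lay inside opposite exons (66 pairs). It was 0.459 at 50 to 80% (84 pairs), 0.772 at 80 to 95% (58 pairs) and 0.825 at 95% or more (24 pairs). Per kb of exon, the read density of the antisense row was above that of its partner in 30 of 66, 44 of 84, 43 of 58 and 20 of 24 pairs of these classes, with median density ratios of 0.829, 1.10, 1.79 and 1.70. These classes leave out rows opposite low partners, such as asRNA:CR45974 above and asRNA:CR45927, which had 14.9 CPM wholly inside CG8187 at 2.54 CPM. Antisense RNA rows below the limit of 2 CPM are left out too, so the ratios come from rows picked for their reads. Among those left out, asRNA:CR45305 opposite RpL37A had no reads with 68.6% overlap. asRNA:CR45007 opposite Arglu1 had a ratio of 0.00717 with 81.8% overlap. Because it is not known whether the reads of a row and of its partner were kept apart, the members are called antisense RNA rows below.

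**Figure D1:**
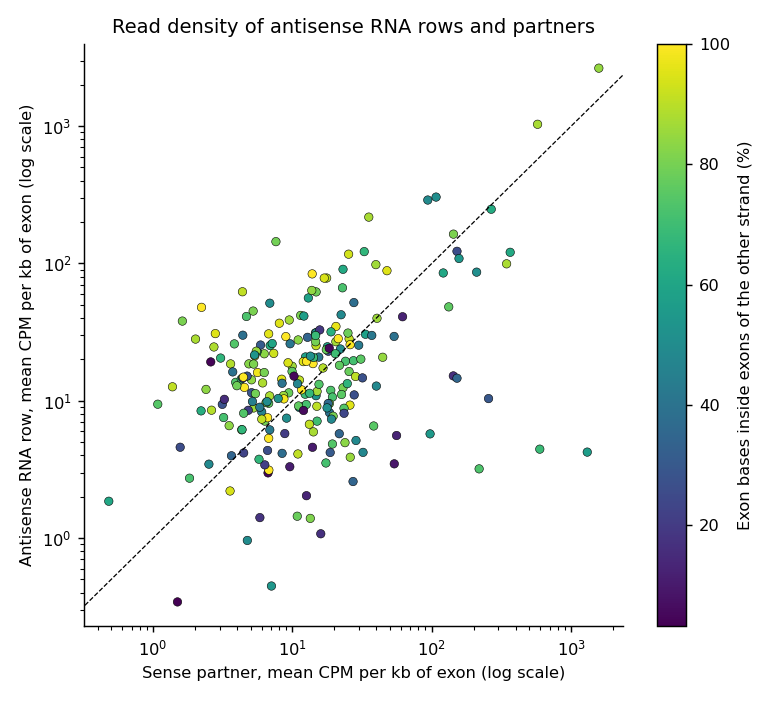
Mean CPM per kb of exon of each antisense RNA row (vertical, log scale) against that of its sense partner (horizontal, log scale) for the 232 pairs with a partner of at least 10 CPM; each point is a pair, the dashed line marks equal density and the colour gives the share of antisense exon bases inside exons of the other strand. Rows with 95% or more overlap (24 pairs, yellow) lay above the line in 20 pairs.

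The median level of the antisense RNA rows in a library went with the share of its reads that the counting placed outside annotated genes. Each library had 4542145 to 10344890 assigned reads, and the 303 rows summed to 6371 to 10579 CPM. Between 58.1 and 68.7% of the reads in a file were counted by the authors as in no annotated feature. This is called the share outside annotated genes here. If the counting used strand, reads inside a gene on the strand not counted also fall in it. It is therefore not a measure of reads from between genes. For each library the deviation of every antisense RNA row from its own 32-library mean was taken as log2 CPM, and the median over the rows was compared with that share. Over the 32 libraries Pearson's r was 0.949 and Spearman's rho 0.895, and r was 0.907 without the 2 libraries farthest from the median share. Within hsp70-1c (10 libraries), hsp70-4c (10), hsp70- (6) and w+hsp70- (6), r was 0.952, 0.927, 0.972 and 0.972. The slopes within strains were 0.047 to 0.064 log2 units per percentage point of the share. Over the 32 libraries r was 0.172 for the sense partners and 0.261 for the 9464 other genes of at least 2 CPM. Within the strains, in the order above, it was -0.0302, 0.617, 0.595 and 0.314 for the partners. It was -0.0523, 0.558, 0.748 and 0.806 for the other genes, so these went with the share too in 3 of the 4 strains. Their slopes were smaller, at -0.0009 to 0.028 for the partners and -0.0015 to 0.020 for the other genes. The relation is one of medians, and single rows went both ways in the comparisons below. The library hsp70- 5 h replicate 2 had the lowest share (58.1%) and the lowest antisense median (-0.44), and hsp70-1c naive replicate 4 had the highest share (68.7%) and the highest median (0.27). These correlations are given as a description, with no p: the share and the levels come from the same reads, and what the shift rests on was not tested. Below, values with this share as a covariate of each library, an alternative chosen after seeing the data, stand beside the comparisons it changes.

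**Figure D2:**
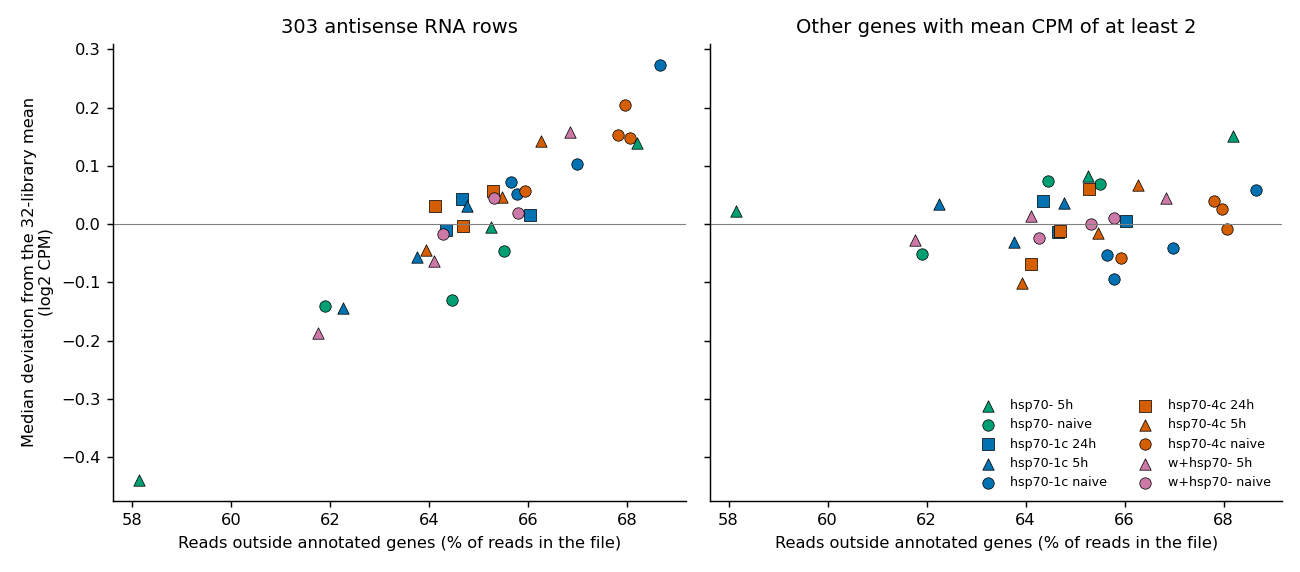
Median deviation from the 32-library mean in log2 CPM (vertical) against the percentage of reads counted as outside annotated genes (horizontal). The 303 antisense RNA rows are on the left and 9464 other genes on the right. Each point is a library, colour gives the strain and shape the time. The antisense medians run from -0.44 to 0.27 along the share, with r = 0.949; for the other genes r is 0.261 over all libraries and -0.0523 to 0.806 within strains, with slopes of at most 0.020 against at least 0.047 for the antisense RNA rows.

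Tests were run over all genes with edgeR, and a row was called where the Benjamini-Hochberg adjusted p was under 0.05. Among naive flies, 92 of 303 antisense RNA rows differed between any of the 4 strains, against 17.7% of all genes tested, and 49 did so with the share outside genes as a covariate. Among all 10462 genes tested, the covariate took the count from 1851 to 1218. Means of that share in naive flies were 66.8% ± 1.4 (SD, n = 4) for hsp70-1c, 67.4% ± 1.01 (n = 4) for hsp70-4c, 64.0% ± 1.85 (n = 3) in hsp70- and 65.1% ± 0.779 (n = 3) in w+hsp70-. In these bulk samples fewer cells of a type and less RNA per cell cannot be told apart. The comparisons of naive strains share libraries, as do those of 5 h and 24 h with the naive flies of a strain, so their values are given side by side.

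Between naive hsp70-4c and hsp70-1c flies, 26 of 303 antisense RNA rows differed, against 10.1% of all genes. In hsp70-4c 8 rows were higher (4.22% of all genes were) and 18 were lower (5.9%), and the median over the rows was -0.01 on the log2 scale. The count was 16 with replicate 1 of naive hsp70-1c left out, and 25 with the covariate. Cell type markers were summed for 9 lists, and 2 did not overlap between these groups. Photoreceptor markers summed to 19218 to 24049.8 CPM in hsp70-4c and 27372 to 30906 CPM in hsp70-1c, and head fat body markers to 2056 to 2910.0 and 3981 to 5375 CPM. Their part in this result, and in those below where such values are given, was not tested. The head fat body sum includes Lsp2, the partner of asRNA:CR11538. Of the 26 partners 13 were called, all in the direction of their antisense row and none in the other.

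asRNA:CR43964 (chromosome 2R, 18775411 to 18777166; 76.1% of its exon bases inside CG15093) had 55.1, 51.5, 58.3 and 50.01 CPM in naive hsp70-4c and 112, 72.7, 97.2 and 113 CPM in naive hsp70-1c, and the groups did not overlap (log2 change -0.92, SE 0.13, edgeR adjusted p = 0.000103). CG15093 had 129, 116, 135 and 124 CPM against 258, 168, 237 and 246 CPM and differed by -0.89 (SE 0.12, adjusted p = 3.11e-05). Both rows of this pair were lower in every hsp70-4c library. asRNA:CR44108 (chromosome X, 5914363 to 5914649) lies opposite Shmt, the serine hydroxymethyltransferase of one-carbon metabolism. It had 41.4, 61.5, 56.7 and 59.1 CPM in hsp70-4c and 115, 79.7, 111 and 97.8 CPM in hsp70-1c (log2 change -0.93, SE 0.15, edgeR adjusted p = 0.000677), with no overlap, and Shmt differed by -0.95 (SE 0.16, adjusted p = 0.000717). In the other direction, asRNA:CR45873 (chromosome 3L, 9456339 to 9457296) had 23.4, 17.2, 19.3 and 21.8 CPM in hsp70-4c and 10.3, 10.3, 9.29 and 7.45 CPM in hsp70-1c (log2 change 1.06, SE 0.14, edgeR adjusted p = 2.5e-05). Its partner CG3437 had 21.1, 17.2, 19.3 and 21.8 CPM against 8.41, 9.17, 5.79 and 5.88 CPM, a difference of 1.38 (SE 0.16, adjusted p = 6.54e-06); asRNA:CR45873 also overlaps CG3552 on its own strand. In replicates 2, 3 and 4 of naive hsp70-4c the files give asRNA:CR45873 and CG3437 equal counts, of 137, 166 and 163 reads. asRNA:CR45024 (chromosome 3R, 20677080 to 20677858; 29.3% inside CG4000) had 20.4, 19.6, 23.5 and 11.8 CPM against 7.04, 8.06, 5.29 and 7.64 CPM (log2 change 1.40, SE 0.20, edgeR adjusted p = 0.000139), and CG4000 differed by 1.58 (SE 0.27, adjusted p = 0.00238).

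Lower pairs in naive hsp70-4c also included asRNA:CR43637 opposite Mct1, a monocarboxylate transporter (-0.94 for the antisense RNA row; gene -0.85, SE 0.11, adjusted p = 4.75e-05). asRNA:CR45376 opposite Swim, which encodes a secreted Wingless-interacting protein, differed by -0.88, and Swim by -0.91 (SE 0.13, adjusted p = 0.000175). asRNA:CR44107 opposite CG5835 differed by -0.87 (gene -0.72, SE 0.13, adjusted p = 0.00071) and asRNA:CR44807 opposite pippin, a sugar transporter gene, by -0.51 (gene -0.55, SE 0.12, adjusted p = 0.00355). The antisense RNA rows of these 4 pairs stayed called under every alternative tried, each leave-one-out fit included. In each of the 4 pairs the row and its gene differed in the same direction. On its own strand asRNA:CR43637 also overlaps FarO.

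Other rows differed between these strains while their partner was not called. asRNA:CR43957 (chromosome 4, 56497 to 63124) has 4.34% of its exon bases opposite ci, the transcription factor of the Hedgehog pathway. It had 15.8, 13.2, 15.8 and 14.7 CPM in naive hsp70-4c and 29.3, 23.8, 23.4 and 23.5 CPM in naive hsp70-1c (log2 change -0.80, SE 0.11, edgeR adjusted p = 7.13e-05). The groups did not overlap, and ci had 15.3, 15.1, 15.4 and 15.1 CPM against 10.6, 11.9, 12.98 and 16.5 CPM, a difference of 0.20 (SE 0.13, adjusted p = 0.441) in the other direction. asRNA:CR43464 (chromosome 2L, 2000058 to 2003935; 16.5% inside CG33543) was low in all strains, with 3.69, 3.52, 4.76 and 4.68 CPM in hsp70-4c and 1.93, 1.67, 1.7 and 1.76 CPM in hsp70-1c (log2 change 1.18, SE 0.27, edgeR adjusted p = 0.0067). CG33543, at 43.8, 40.3, 46.7 and 48.3 CPM and 38.7, 41.3, 37.3 and 42.5 CPM, had a log2 difference of 0.12 (SE 0.08, adjusted p = 0.472), which missed the threshold. Both antisense RNA rows have most of their exon bases outside the exons of the partner, and both calls held under every alternative tried.

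**Figure D3:**
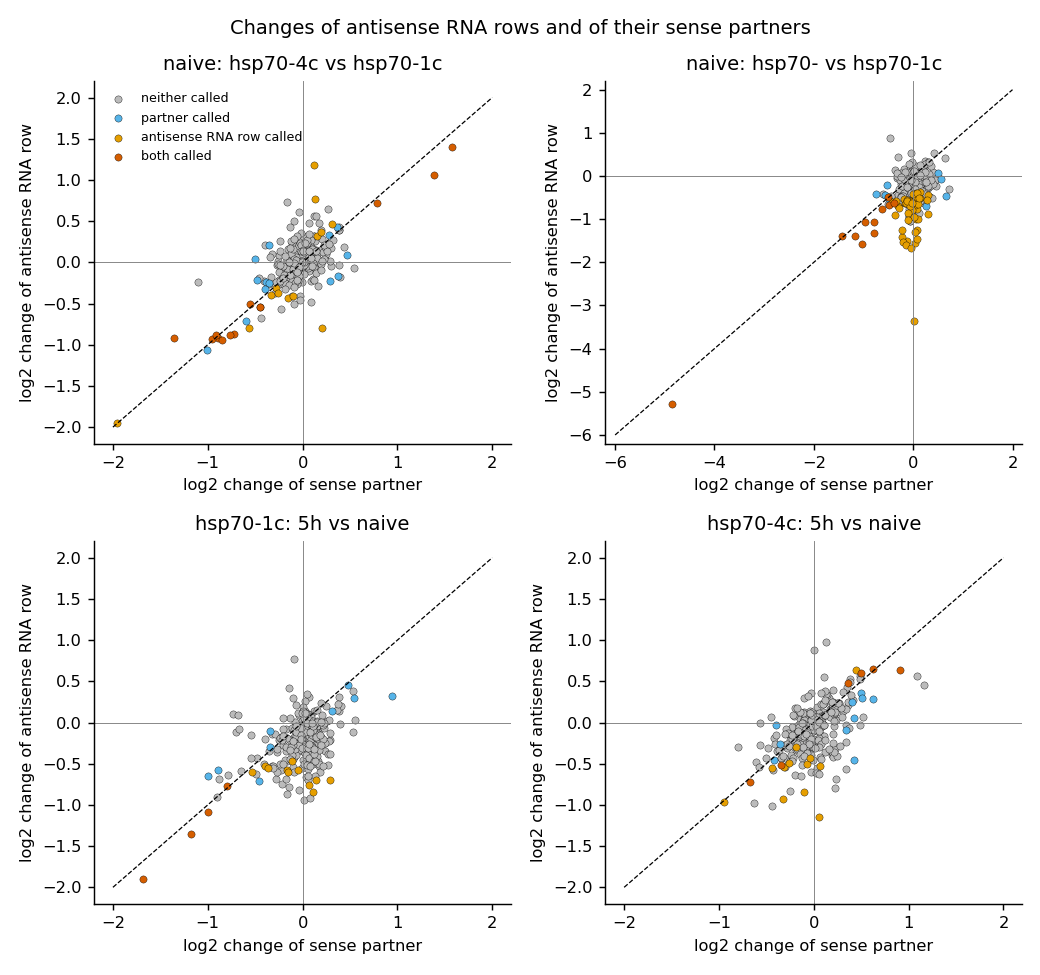
log2 change of each antisense RNA row (vertical) against that of its sense partner (horizontal) in 4 comparisons; each point is a pair, coloured by whether the row, the partner, both or neither had an adjusted p under 0.05, and the dashed line marks equal change. Where both were called (13, 11, 4 and 6 antisense RNA rows in panel order) they moved in the same direction; in naive hsp70- against hsp70-1c and in hsp70-1c at 5 h the cloud of rows lies below 0 while the partners centre on 0.

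Naive hsp70- flies had lower antisense RNA rows than naive hsp70-1c flies: 62 of 303 were called, against 7.53% of all genes, and all 62 were lower (5.68% of all genes were). The median over the rows was -0.27 on the log2 scale, against 0.00 over all genes tested, and 249 of 303 were below 0. The share of reads outside genes was lower too (64.0% ± 1.85 against 66.8% ± 1.4), and with it as a covariate 32 rows were called, 1 higher and 31 lower; among all genes the count went from 788 to 445. The ranges of the share did not overlap, at 61.9 to 65.5% and 65.6 to 68.7%, so share and strain cannot be told apart here. Head fat body, glia and haemocyte markers did not overlap between the groups. Glia markers summed to 1682 to 1883 CPM in hsp70- against 1961 to 2153 CPM, and haemocyte markers to 139 to 149 against 155 to 166 CPM. The count was 31 with replicate 3 of naive hsp70- left out. Of 56 called rows with a tested partner, 11 partners were called, all lower, and 45 were not called.

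Among the pairs, asRNA:CR11538 (chromosome 3L, 12129103 to 12131488; 87.8% inside Lsp2) had 21.1, 18.7 and 23.6 CPM in hsp70- and 851, 626, 712 and 979.7 CPM in hsp70-1c (log2 change -5.28, SE 0.74, edgeR adjusted p = 0.00202). Lsp2 had 88.2, 78.3 and 121 CPM against 3232, 2057, 2376 and 3063 CPM, a difference of -4.86 (SE 0.72, adjusted p = 0.00278). All hsp70- libraries lay far below all hsp70-1c libraries in both. Lsp2 is 1 of the 6 head fat body markers, whose summed level was 1211 to 1891 CPM in naive hsp70- and 3981 to 5375 CPM in naive hsp70-1c. Of that sum Lsp2 itself made up 2057 to 3232 CPM in naive hsp70-1c, so the sum is not a measure of fat body apart from Lsp2. The part of fat body content in this result was not tested. Over the 10 group means asRNA:CR11538 and Lsp2 had r = 1.00 with a slope of 1.07 on the log2 scale. asRNA:CR43964 differed by -1.40 (CG15093 -1.17, SE 0.13, adjusted p = 3.73e-05), asRNA:CR44108 by -1.40 (Shmt -1.43, SE 0.18, adjusted p = 0.000216) and asRNA:CR45804 by -1.07 (Prps -0.79, SE 0.15, adjusted p = 0.00311). These rows were lower together with their genes.

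Of the rows lower in hsp70- without a called partner, asRNA:CR44850, asRNA:CR44321 and asRNA:CR45969 were also higher in naive w+hsp70- than in naive hsp70-. asRNA:CR44321 (chromosome 3R, 26260902 to 26261515; 61.5% of its exon bases inside Ald1) lies opposite the gene of fructose-bisphosphate aldolase, a glycolytic enzyme. It had 37.5, 35.7 and 28.2 CPM in naive hsp70-, 60.2, 52.3 and 57.8 CPM in w+hsp70-, 95.7, 83.8, 94.7 and 111 CPM in hsp70-1c and 101, 96.04, 109 and 84.1 CPM in hsp70-4c. Naive hsp70- was lowest, w+hsp70- lay between without overlapping any other strain, and hsp70-1c and hsp70-4c overlapped each other. It differed from hsp70-1c in hsp70- (log2 change -1.55, SE 0.13, edgeR adjusted p = 1.12e-06), between w+hsp70- and hsp70-4c (log2 change -0.77, SE 0.12, edgeR adjusted p = 0.000257) and between w+hsp70- and hsp70- (log2 change 0.77, SE 0.13, edgeR adjusted p = 0.0111). Ald1 was at 1139 to 1635 CPM over the same 14 libraries, with a log2 difference between hsp70- and hsp70-1c of 0.04 (SE 0.11, adjusted p = 0.88). The difference from hsp70-1c held under every alternative (adjusted p = 7.13e-05 with the covariate), and for w+hsp70- against hsp70- the adjusted p was 0.0616 to 0.0929 with replicate 2 or 3 of naive hsp70- or replicate 1 of naive w+hsp70- left out in turn.

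asRNA:CR45969 (chromosome 3L, 22871813 to 22872107; 295 exon bases) lies opposite Arf1, a small GTPase of vesicle coats. It had 16.2, 15.5 and 13.9 CPM in naive hsp70- and 29.2, 26.95, 27.7 and 34.5 CPM in hsp70-1c (log2 change -1.0, SE 0.12, edgeR adjusted p = 9.05e-05), and 23.2, 28.2 and 25.96 CPM in w+hsp70- (log2 change 0.78, SE 0.13, edgeR adjusted p = 0.0109 against hsp70-). The hsp70- libraries were below all other naive libraries, and the log2 difference of Arf1 from hsp70-1c was 0.05 (SE 0.09, adjusted p = 0.821). For w+hsp70- against hsp70- the adjusted p of asRNA:CR45969 was 0.0634 to 0.0831 with replicate 2 or 3 of naive hsp70- or replicate 2 of naive w+hsp70- left out in turn, and 0.0506 with all 32 libraries in 1 fit. asRNA:CR44850 (chromosome 2L, 14349070 to 14349799; 88.2% inside l(2)34Fc) was lowest in naive hsp70-, at 0.580, 0.215 and 0.220 CPM, and had 2.73, 4.58, 3.39 and 3.92 CPM in hsp70-1c (log2 change -3.37, SE 0.44, edgeR adjusted p = 0.000175) and 2.5, 1.99 and 3.2 CPM in w+hsp70- (log2 change 2.84, SE 0.50, edgeR adjusted p = 0.0119). Its values in naive hsp70- rest on very few reads, as these libraries had 5172194, 4648247 and 4542145 assigned reads. The size of both changes is therefore uncertain. The hsp70- libraries did not overlap either group, while the log2 difference of l(2)34Fc from hsp70-1c was 0.02 (SE 0.22, adjusted p = 0.976). For w+hsp70- against hsp70- its adjusted p was 0.0522 to 0.0974 with replicate 2 or 3 of naive hsp70- or replicate 1 or 3 of naive w+hsp70- left out in turn.

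These 3 rows were the antisense RNA rows called between naive w+hsp70- and hsp70-, 3 of 303 against 0.287% of all genes, all higher in w+hsp70- (0.21% of all genes were higher and 0.0765% lower); 63 had an unadjusted p under 0.05. Among the 3 called rows, asRNA:CR44850 had very few reads in naive hsp70-. Haemocyte markers did not overlap, at 168 to 189 CPM in w+hsp70- and 139 to 149 CPM in hsp70-. The count was 0 with replicate 2 or 3 of naive hsp70- left out, 1 with replicate 1 of naive w+hsp70- left out and 7 with replicate 1 of naive hsp70- left out. The median over the 303 rows was 0.15. asRNA:CR45485 (chromosome X, 16307032 to 16308687; 84.5% inside Had1, whose counts were not analysed here) had 17.2, 15.1 and 6.6 CPM in naive hsp70- and 49.5, 54.3, 61.3 and 78.4 CPM in hsp70-1c (log2 change -2.26, SE 0.33, edgeR adjusted p = 0.00179). It was at 34.8, 22.7 and 20.6 CPM in w+hsp70- and 61.6, 88.6, 103 and 73.8 CPM in hsp70-4c (log2 change -1.63, SE 0.30, edgeR adjusted p = 0.00451). The 2 groups of each of these comparisons did not overlap. asRNA:CR45135 opposite lola, a family of transcription factors from 1 locus, differed between hsp70- and hsp70-1c by -1.95, and asRNA:CR43889 opposite Mi-2, a chromatin remodeller, by -1.60 (Mi-2 -0.15, SE 0.10, adjusted p = 0.417).

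**Figure D4:**
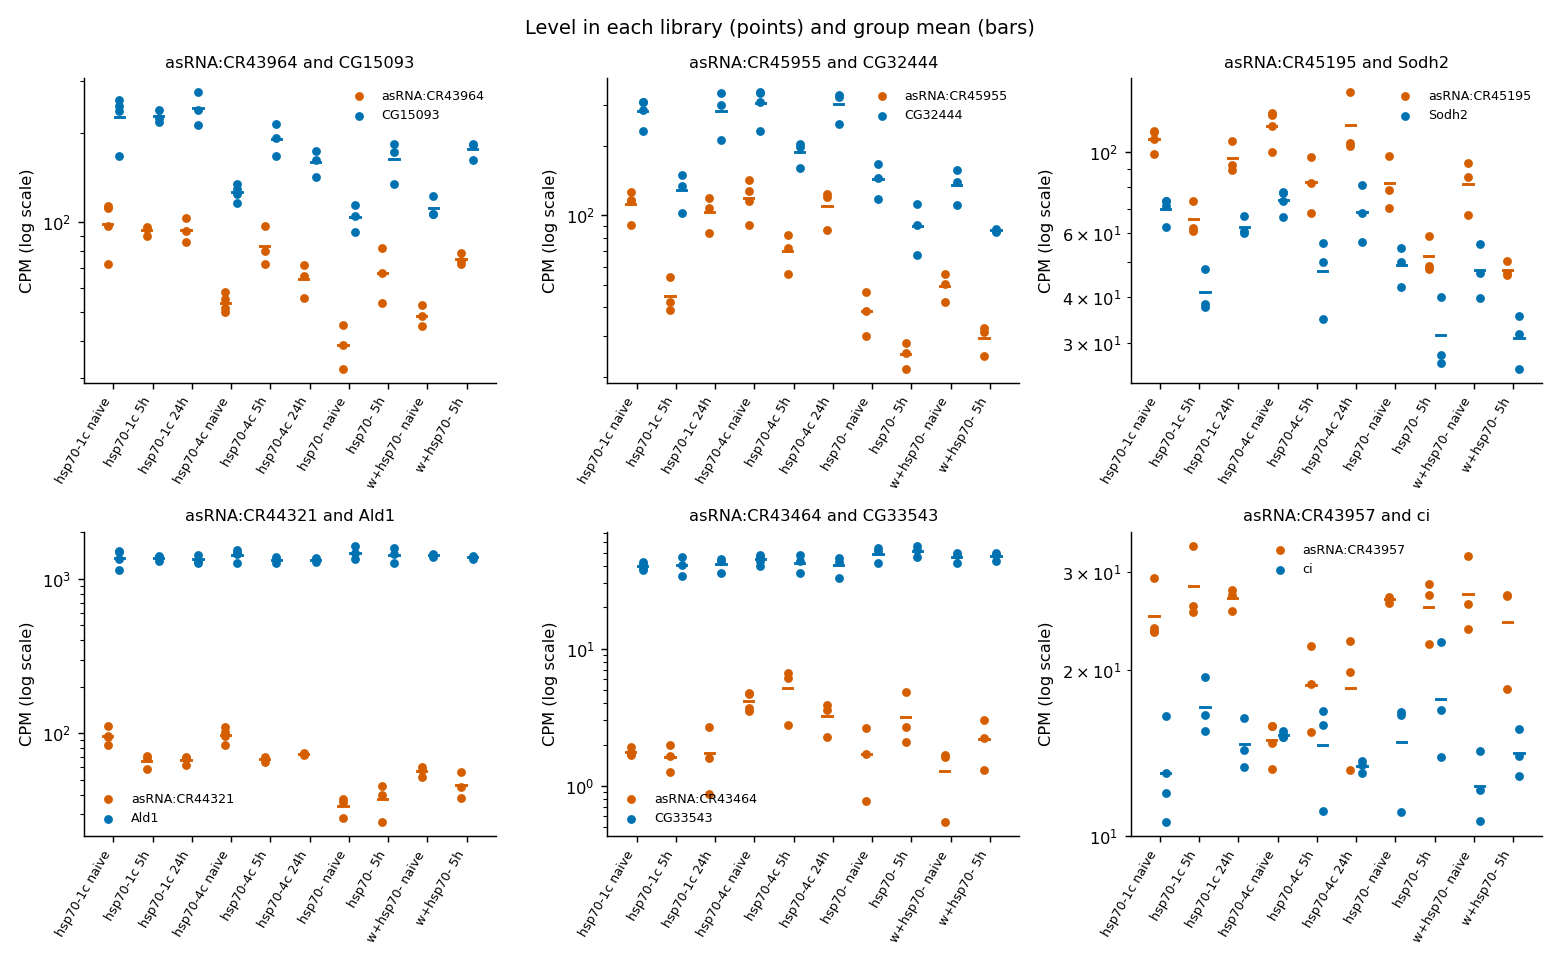
CPM on a log scale (vertical) in each library of the 10 groups (horizontal) for 6 antisense RNA rows (orange) and their sense partners (blue); points are libraries and bars group means. In the upper panels the row and its partner move together across groups, and in the lower panels they do not: asRNA:CR44321 ranges from 26.4 to 111 CPM while Ald1 stays at 1139 to 1635 CPM.

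Between naive w+hsp70- and hsp70-4c, 34 of 303 antisense RNA rows differed, against 9.91% of all genes: 7 were higher (4.56%) and 27 lower (5.35%) in w+hsp70-, with a median of -0.12. With the share outside genes as a covariate the count was 21 (723 of all genes, against 1037 without it), and it was 21 with replicate 1, 2 or 3 of naive w+hsp70- left out and 22 with replicate 3 of naive hsp70-4c left out. The share was 64.3 to 65.8% in w+hsp70- and 65.9 to 68.1% in hsp70-4c. These ranges did not overlap, so share and strain cannot be told apart here. Of the 9 marker lists 4 did not overlap: photoreceptor (28984 to 38175 against 19218 to 24049.8 CPM), glia (1769 to 1875 against 1994 to 2211), head fat body (1609 to 2055 against 2056 to 2910.0) and haemocyte (168 to 189 against 143 to 156). Of 30 called rows with a tested partner, 7 partners were called in the same direction and none in the other. asRNA:CR45955 (chromosome 3L, 21636643 to 21637314; 54.5% inside CG32444) had 55.8, 42.1 and 50.2 CPM in w+hsp70- and 90.3, 116, 142 and 128 CPM in hsp70-4c (log2 change -1.25, SE 0.18, edgeR adjusted p = 0.000338), and CG32444 differed by -1.15 (SE 0.17, adjusted p = 0.000449). asRNA:CR43957 was higher in w+hsp70-, at 23.7, 32.1 and 26.3 CPM (log2 change 0.89, SE 0.12, edgeR adjusted p = 6.2e-05), and the log2 difference of ci was -0.29 (SE 0.15, adjusted p = 0.256). Neither pair of groups overlapped. asRNA:CR30267 (chromosome 2R, 22756165 to 22758995; 71.4% inside CG42260) had 12.8, 9.02 and 10.1 CPM against 21.6, 16.7, 20.4 and 19.5 CPM (log2 change -0.85, SE 0.15, edgeR adjusted p = 0.000645), and the log2 difference of CG42260 was -0.10 (SE 0.14, adjusted p = 0.747). asRNA:CR45873 differed by -0.98, asRNA:CR45024 by -1.51 and asRNA:CR44107 by 0.68, each with its partner called in the same direction.

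The difference between hsp70-4c and hsp70-1c was then followed in trained flies, whose libraries are separate from the naive ones. Of the 26 antisense RNA rows called in naive flies, 26 had the same sign at 5 h and 9 were called there; of all genes called in naive flies 90.9% had the same sign and 38.9% were called. At 24 h 25 of the 26 had the same sign and 8 were called, against 96.0% and 34.5% of all genes. At 5 h, 15 of 303 rows were called between these strains (5.61% of all genes), 8 higher (2.98%) and 7 lower (2.62%) in hsp70-4c, and the count was 6 with replicate 2 of hsp70-1c at 5 h or replicate 1 of hsp70-4c at 5 h left out, 7 with replicate 1 of hsp70-1c at 5 h or replicate 2 of hsp70-4c at 5 h left out and 9 with replicate 3 of hsp70-4c at 5 h left out. At 24 h, 11 were called (4.2% of all genes), 5 higher (2.17%) and 6 lower (2.03%), and the count was 3 with replicate 2 of hsp70-1c at 24 h or replicate 3 of hsp70-4c at 24 h left out and 7 with replicate 1 of hsp70-1c at 24 h or replicate 2 of hsp70-4c at 24 h left out. Between w+hsp70- and hsp70- at 5 h, 2 rows were called (0.266% of all genes), both higher in w+hsp70- (0.19% of all genes were higher and 0.076% lower), and the count was 0 with replicate 1 or 3 of w+hsp70- at 5 h or replicate 1, 2 or 3 of hsp70- at 5 h left out. A replicate block ended both calls, and with all 32 libraries in 1 fit 1 row was called higher and 2 lower. They were asRNA:CR44367 opposite CG6553 (log2 change 1.11, SE 0.19, edgeR adjusted p = 0.0265) and asRNA:CR45804 opposite Prps (log2 change 0.54, SE 0.10, edgeR adjusted p = 0.0371).

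At 5 h photoreceptor markers summed to 21128 to 26289 CPM in hsp70-4c and 36482 to 37068 CPM in hsp70-1c, and gut markers to 7598 to 11780.4 and 4112 to 5452 CPM. At 24 h photoreceptor markers summed to 21348 to 27870.5 and 34529 to 41036 CPM, and head fat body markers to 2199.7 to 3163 and 3338 to 4391 CPM. Accessory gland markers did not overlap between w+hsp70- and hsp70- at 5 h, at 4.48 to 5.66 CPM and 6.41 to 8.89 CPM.

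asRNA:CR45873 and asRNA:CR45161 were called between hsp70-4c and hsp70-1c at both times after training. asRNA:CR45873 had 15.7, 25.2 and 30.9 CPM in hsp70-4c and 11.2, 9.47 and 11.8 CPM in hsp70-1c at 5 h (log2 change 1.16, SE 0.19, edgeR adjusted p = 0.000987), and 17.3, 24.2 and 21.6 CPM against 12.1, 10.2 and 9.78 CPM at 24 h (log2 change 0.99, SE 0.14, edgeR adjusted p = 0.00285). asRNA:CR45161 (chromosome 3L, 19989706 to 19990739; 77.5% inside fln, which encodes flightin, a thick filament protein of flight muscle) had 8.24, 8.26 and 11.8 CPM against 27.9, 21.7 and 15.7 CPM at 5 h (log2 change -1.17, SE 0.19, edgeR adjusted p = 0.00098). At 24 h it had 9.0, 15.3 and 10.7 CPM against 29.97, 26.7 and 25.5 CPM (log2 change -1.22, SE 0.16, edgeR adjusted p = 0.00174). The strains did not overlap at either time in either row. For fln the differences were -0.86 (SE 0.30, adjusted p = 0.156) at 5 h and -0.95 (SE 0.18, adjusted p = 0.0169) at 24 h, and the 4 muscle markers summed to 809.7 to 868 CPM in hsp70-4c and 785 to 858 CPM in hsp70-1c at 5 h. asRNA:CR45133 (chromosome 2R, 10152717 to 10154345) lies opposite KCNQ, a voltage-gated potassium channel gene of neurons. It had 32.9, 32.3 and 36.6 CPM in hsp70-4c and 22.8, 23.01 and 20.9 CPM in hsp70-1c at 5 h, with no overlap (log2 change 0.64, SE 0.12, edgeR adjusted p = 0.00245), and the log2 difference of KCNQ was -0.04 (SE 0.13, adjusted p = 0.942). At 24 h asRNA:CR45133 had 38.7, 32.3 and 30.3 CPM in hsp70-4c and 29.8, 29.5 and 20.3 CPM in hsp70-1c and was not called (log2 change 0.37, SE 0.17, edgeR adjusted p = 0.36). In naive flies asRNA:CR45133 overlapped between these strains, at 38.8, 24.9, 33.7 and 33.8 CPM and 25.3, 41.5, 22.4 and 41.3 CPM.

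Training was examined at 5 h in each strain. In hsp70-1c 18 of 303 antisense RNA rows were called against naive flies, compared with 3.51% of all genes, and all 18 were lower (2.1% of all genes were). The median over the rows was -0.20 and 250 of 303 were below 0. The share of reads outside genes was 66.8% ± 1.4 (n = 4) in naive flies and 63.6% ± 1.26 (n = 3) at 5 h, and with it as a covariate 1 antisense RNA row was called; of all genes 5 were called with it and 369 without it. The share did not overlap between the times, at 62.3 to 64.8% at 5 h and 65.6 to 68.7% in naive flies. The covariate therefore cannot separate share from time, and no conclusion is drawn from the lost calls. The count was 7 with replicate 2 of hsp70-1c at 5 h left out and 11 with replicate 4 of naive hsp70-1c left out. Of 15 called rows with a tested partner, 4 partners were called, all lower.

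The row that stayed called with the covariate was asRNA:CR45485, with 18.3, 21.3 and 18.1 CPM at 5 h and 49.5, 54.3, 61.3 and 78.4 CPM in naive flies (log2 change -1.69, SE 0.13, edgeR adjusted p = 2.49e-05; 0.028 with the covariate). At 24 h it was at 52.5, 47.4 and 46.4 CPM. The 5 h libraries lay below all others of the strain, and it also overlaps CG3679 on its own strand. asRNA:CR45955 had 53.99, 42.05 and 38.8 CPM at 5 h and 115, 116, 91.1 and 126 CPM in naive flies (log2 change -1.36, SE 0.14, edgeR adjusted p = 0.000319; 0.131 with the covariate), and at 24 h 119, 107 and 83.8 CPM. CG32444 differed at 5 h by -1.18 (SE 0.17, adjusted p = 0.00317). In both rows the 5 h libraries lay below all naive libraries and the 24 h libraries overlapped the naive ones.

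asRNA:CR45195 (chromosome 3R, 10876834 to 10877783; 86.1% inside Sodh2, a sorbitol dehydrogenase gene) had 60.9, 62.1 and 73.5 CPM at 5 h and 109, 99.1, 114 and 114 CPM in naive hsp70-1c, with no overlap (log2 change -0.77, SE 0.11, edgeR adjusted p = 0.00166; 0.258 with the covariate). Sodh2 had 37.5, 38.4 and 47.7 CPM against 71.0, 62.2, 73.3 and 73.5 CPM, a difference of -0.80 (SE 0.11, adjusted p = 0.00146). asRNA:CR44321 had 70.7, 58.7 and 68.9 CPM at 5 h against 95.7, 83.8, 94.7 and 111 CPM (log2 change -0.57, SE 0.10, edgeR adjusted p = 0.00489; 0.629 with the covariate), while the log2 difference of Ald1 was -0.05 (SE 0.11, adjusted p = 0.869). asRNA:CR11538 differed by -1.90 and Lsp2 by -1.68 (SE 0.27, adjusted p = 0.0155); the adjusted p of asRNA:CR11538 was 0.0516 with replicate 3 of hsp70-1c at 5 h left out, 0.0777 with all 32 libraries in 1 fit and 0.306 with the covariate. Photoreceptor markers summed to 36482 to 37068 CPM at 5 h and 27372 to 30906 CPM in naive hsp70-1c, and muscle markers to 785 to 858 and 884 to 1121 CPM. The head fat body markers, which include Lsp2 itself, summed to 2131 to 2804 CPM at 5 h and 3981 to 5375 CPM in naive hsp70-1c, and their part in this result was not tested.

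In hsp70-4c 19 of 303 antisense RNA rows were called at 5 h, against 5.48% of all genes: 5 were higher (3.04%) and 14 lower (2.44%), with a median of -0.07. The share outside genes was 65.2% ± 1.18 (n = 3) at 5 h and 67.4% ± 1.01 (n = 4) in naive flies, and 15 rows were called with the covariate, 7 higher and 8 lower (442 of all genes, against 570 without it). The muscle markers summed to 809.7 to 868 CPM at 5 h and 1092 to 1424 CPM in naive flies, with no overlap. The lower rows included asRNA:CR45161 inside fln of flight muscle (log2 change -0.96). The count was 6 with replicate 2 of hsp70-4c at 5 h left out, 9 with replicate 1 or 3 of naive hsp70-4c left out and 10 with replicate 1 or 3 of hsp70-4c at 5 h or replicate 2 of naive hsp70-4c left out. Of 18 called rows with a tested partner, 6 partners were called in the same direction and none in the other. Among the higher rows, asRNA:CR43964 had 72.5, 80.2 and 97.5 CPM at 5 h and 55.1, 51.5, 58.3 and 50.01 CPM in naive flies (log2 change 0.65, SE 0.10, edgeR adjusted p = 0.00334), and CG15093 differed by 0.62 (SE 0.08, adjusted p = 0.00179). asRNA:CR44807 had 46.3, 55.7 and 55.5 CPM against 32.96, 30.1, 39.8 and 38.2 CPM (log2 change 0.60, SE 0.10, edgeR adjusted p = 0.00558), and pippin differed by 0.50 (SE 0.09, adjusted p = 0.0102). Neither overlapped between times. Among the lower rows, asRNA:CR30267 had 9.81, 10.4 and 9.95 CPM against 21.6, 16.7, 20.4 and 19.5 CPM, with no overlap (log2 change -0.93, SE 0.14, edgeR adjusted p = 0.00334), and the log2 difference of CG42260 was -0.32 (SE 0.19, adjusted p = 0.353). asRNA:CR44321 had 64.9, 67.6 and 70.3 CPM against 101, 96.04, 109 and 84.1 CPM (log2 change -0.50, SE 0.09, edgeR adjusted p = 0.00911), and the log2 difference of Ald1 was -0.07 (SE 0.09, adjusted p = 0.692). These 4 calls held under every alternative tried, the covariate included.

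In w+hsp70- 5 of 303 antisense RNA rows were called at 5 h, 3 higher (0.979% of all genes were) and 2 lower (0.949%), against 1.93% of all genes, and all 5 partners were called in the same direction. The count was 2 with replicate 1 of naive w+hsp70- left out and 3 with replicate 2 of naive w+hsp70- or replicate 3 of w+hsp70- at 5 h left out, 9 with a replicate block and 12 with no filter on low counts. Haemocyte markers summed to 138 to 163 CPM at 5 h and 168 to 189 CPM in naive flies. asRNA:CR43964 had 78.8, 72.4 and 73.9 CPM at 5 h and 52.6, 44.8 and 48.2 CPM in naive flies (log2 change 0.62, SE 0.10, edgeR adjusted p = 0.00283), and CG15093 differed by 0.65 (SE 0.10, adjusted p = 0.00246). asRNA:CR45195 had 50.2, 45.9 and 46.5 CPM against 93.5, 85.4 and 67.1 CPM (log2 change -0.80, SE 0.12, edgeR adjusted p = 0.00226), and Sodh2 differed by -0.63 (SE 0.15, adjusted p = 0.0462). The times did not overlap in either row. asRNA:CR45955 differed by -0.76 (CG32444 -0.67, SE 0.12, adjusted p = 0.00819), with an adjusted p of 0.0578 with replicate 1 of naive w+hsp70- left out and of 0.0681 with all 32 libraries in 1 fit. asRNA:CR44367 differed by 1.02 (CG6553 1.22, SE 0.20, adjusted p = 0.00408) and asRNA:CR45804 by 0.50 (Prps 0.52, SE 0.10, adjusted p = 0.00984). The adjusted p of asRNA:CR44367 was 0.0729 to 0.124 with replicate 1 or 3 of w+hsp70- at 5 h or replicate 1 or 2 of naive w+hsp70- left out in turn. That of asRNA:CR45804 was 0.0569 to 0.149 with replicate 1 or 3 of w+hsp70- at 5 h or replicate 1, 2 or 3 of naive w+hsp70- left out in turn, and 0.0533 with all 32 libraries in 1 fit.

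In hsp70- no antisense RNA row of 295 tested was called by edgeR at 5 h, against 0.0305% of all genes; 15 were under 0.05 before adjustment, and 0 were called by DESeq2, 1 with a replicate block and 2 with all 32 libraries in 1 fit. The replicates of this strain spread widely at 5 h, with shares outside genes of 63.9% ± 5.16 (SD, n = 3). asRNA:CR43964 had 81.7, 67.5 and 53.6 CPM at 5 h and 45.2, 38.5 and 32.1 CPM in naive hsp70- (log2 change 0.76, SE 0.21, edgeR adjusted p = 0.478). asRNA:CR45195 had 48.8, 58.8 and 47.9 CPM and 97.8, 78.7 and 70.5 CPM (log2 change -0.71, SE 0.18, edgeR adjusted p = 0.368), and asRNA:CR45955 had 25.4, 28.1 and 21.7 CPM and 46.8, 38.5 and 29.9 CPM (log2 change -0.66, SE 0.20, edgeR adjusted p = 0.548). The times did not overlap in these 3 rows, which are among those called at 5 h in other strains, and none passed the threshold. How many of the 295 rows had no overlap was not counted, so no response is read from these 3.

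Over the strains, 33 antisense RNA rows were called at 5 h in at least 1 strain: 25 in 1 strain, 7 in 2 and 1 in 3, which is 8.25%, 2.31% and 0.33% of the 303. Of all genes tested 6.69%, 1.36% and 0.383% were called in 1, 2 and 3 strains. No row was called in opposite directions in different strains. The row called in 3 strains was asRNA:CR45955, lower in each, with log2 changes of -1.36 in hsp70-1c, -0.73 in hsp70-4c and -0.76 in w+hsp70-; the call in hsp70-4c had an adjusted p of 0.124 with the covariate and of 0.0787 to 0.135 with replicate 2 or 3 of hsp70-4c at 5 h or replicate 2, 3 or 4 of naive hsp70-4c left out in turn. The difference between responses was tested as an interaction. No antisense RNA row was called by edgeR for hsp70-4c against hsp70-1c (0.0465% of all genes were, 0.0372% higher and 0.00929% lower; without adjustment 43 rows had p under 0.05, and 4 were called by DESeq2), nor for w+hsp70- against hsp70- (0% of all genes; 12 unadjusted; DESeq2 0). With replicate 2 of naive hsp70-1c left out, 1 row was called for hsp70-4c against hsp70-1c. A response called in 1 strain and not in another is therefore not shown to differ between them.

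At 24 h fewer antisense RNA rows were called against naive flies than at 5 h, by edgeR. In hsp70-1c no antisense RNA row was called by edgeR (0% of all genes were), 55 were under 0.05 before adjustment and 2 were called by DESeq2; the median over the rows was -0.15 and 237 of 303 were below 0. Photoreceptor, glia and muscle markers did not overlap between the times, at 34529 to 41036, 1775 to 1878 and 698 to 829.6 CPM at 24 h and 27372 to 30906, 1961 to 2153 and 884 to 1121 CPM in naive flies. In hsp70-4c 2 rows were called, both lower (0.423% of all genes were), against 0.923% of all genes, and the count was 0 with replicate 2 or 3 of hsp70-4c at 24 h or replicate 1 or 3 of naive hsp70-4c left out, 1 with replicate 2 of naive hsp70-4c left out, 4 with replicate 4 of naive hsp70-4c left out and 8 with replicate 1 of hsp70-4c at 24 h left out, and 0 with the covariate, with which no gene at all was called. The share outside genes was 64.1 to 65.3% at 24 h and 65.9 to 68.1% in naive hsp70-4c. These ranges did not overlap, so share and time cannot be told apart here and no conclusion is drawn from the lost calls. DESeq2 called 9, the fit with no filter on low counts 6 and the replicate block 5. Glia and muscle markers summed to 1716 to 1893 and 771 to 898 CPM at 24 h and to 1994 to 2211 and 1092 to 1424 CPM in naive flies. asRNA:CR30267 had 10.7, 8.95 and 7.11 CPM at 24 h and 21.6, 16.7, 20.4 and 19.5 CPM in naive hsp70-4c (log2 change -1.13, SE 0.14, edgeR adjusted p = 0.0223; 0.131 with the covariate), and the log2 difference of CG42260 was -0.26 (SE 0.19, adjusted p = 0.565). The 24 h libraries lay below all naive ones. The adjusted p of asRNA:CR30267 was 0.0665 to 0.225 with replicate 2 or 3 of hsp70-4c at 24 h or replicate 1 or 3 of naive hsp70-4c left out in turn. asRNA:CR43469 opposite Balat differed by -0.81 (Balat -0.43, SE 0.13, adjusted p = 0.132), with an adjusted p of 0.131 with the covariate and of 0.0767 to 0.237 with replicate 2 or 3 of hsp70-4c at 24 h or replicate 1, 2 or 3 of naive hsp70-4c left out in turn.

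**Figure D5:**
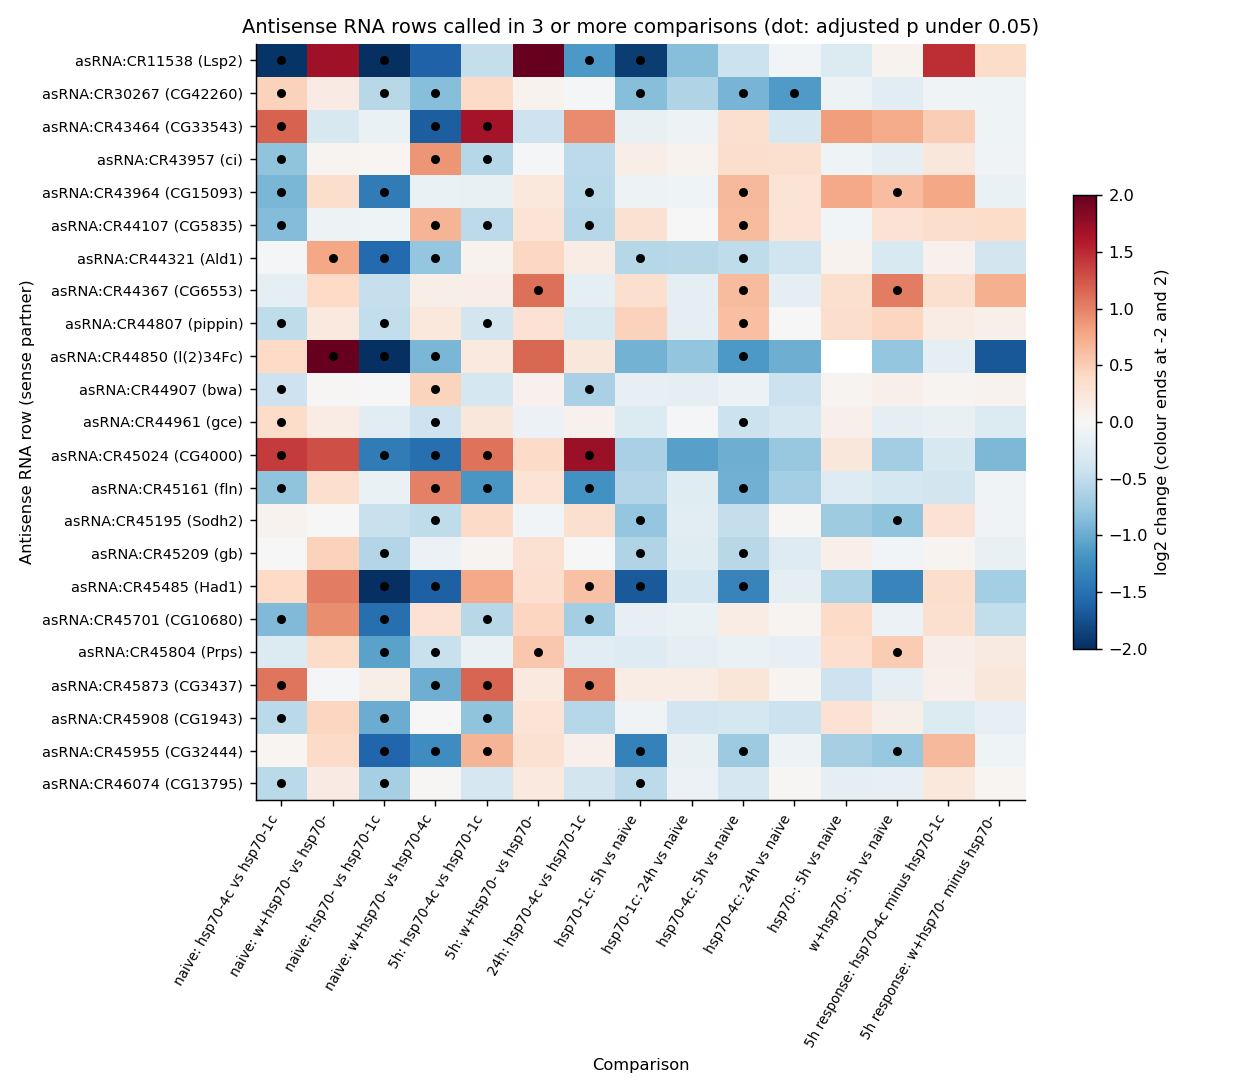
log2 change (colour, ending at -2 and 2) of the 23 antisense RNA rows called in 3 or more comparisons (vertical, partner in brackets) in the 15 comparisons of 2 groups or 2 responses (horizontal); dots mark an adjusted p under 0.05 and the blank cell of asRNA:CR44850 was not tested. asRNA:CR30267 and asRNA:CR45955 were each called in 6 comparisons, and no dot stands in the last 2 columns, which test the difference between responses.

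Over the 15 comparisons of 2 groups or 2 responses, 101 of 303 antisense RNA rows (33.3%) were called at least once, against 23.5% of all genes tested. In 3 or more of them 23 rows (7.59%) were called, against 6.55% of all genes. In none of the 15 comparisons was the partner of a called row called in the opposite direction. To describe this without the calls, the group means of each row and of its partner were set against each other on the log2 scale over the 10 groups. For 20 of the 232 pairs with a partner of at least 10 CPM, the group means of the partner varied with an SD over 0.3, a limit chosen after seeing the data. In these 20 pairs r was -0.681 to 0.998 with a median of 0.948, and 18 had r over 0.8. The slope of the row on its partner had a median of 0.917. The 2 exceptions were asRNA:CR45132 opposite Pkn, a protein kinase gene (r = -0.681), and asRNA:CR45121 opposite Prps (r = 0.44), both under 10 CPM. Just below the limit lay asRNA:CR45701 opposite CG10680 (r = 0.384) and asRNA:CR42860 opposite sls, a titin-like muscle gene (r = 0.673). With a limit of 0.25, 21 of 34 pairs had r over 0.8. Most pairs had a partner that varied less. For the 143 such pairs with a row of at least 10 CPM and a partner SD of at most 0.3, r was -0.729 to 0.972. Their median r was 0.305 and their median slope 0.334, so most of these pairs showed no close relation, although r reached 0.972. Where a partner varies little, r says little about whether the row moves with it. Beside the pairs described above, the 20 pairs included asRNA:CR44703 opposite Cht9, a chitinase gene (r = 0.94, slope 0.876), asRNA:CR45479 opposite Cyp4d14, a cytochrome P450 gene (r = 0.97, slope 0.996), and asRNA:CR44052 opposite Gba1b, a glucocerebrosidase gene (r = 0.943, slope 0.702). The row and its partner come from the same libraries, so these correlations are given as a description, with no p.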

How the data were processed

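Polyadenylated RNA of male heads was read as 75-bp single-end reads with a directional kit, per the labels' protocols. The submitters' processing notes name Trimmomatic for trimming, STAR 2.5.0a, build dm6 and featureCounts 1.5.0-p1; options, strand setting and annotation release are not given in the sources used here. The deposited files hold raw counts of reads per gene, as the authors made them, and 12 lines of read-status totals, which stayed out of library sizes.

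CPM are counts divided by the assigned reads of the library, times 1e+06. Partners were found in the Ensembl BDGP6 annotation (release 115) as the opposite-strand gene sharing the most exon bases. Every gene that passed filterByExpr entered a robust quasi-likelihood fit of edgeR 4.0.16 (R 4.3.3) after TMM scaling, with 2-sided p-values adjusted by Benjamini-Hochberg over all genes tested (limit 0.05). Naive strain comparisons used the naive libraries, later strain comparisons the libraries of that time, and training comparisons the libraries of a strain. Naive hsp70-4c libraries have titles that read as a control for 5 h and count as naive here because the remaining labels say so. Values with ± are means with the SD over replicates; p-values measure the spread between pools of flies. The method was tested on simulated data.

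Members and lists were chosen with earlier results of these data known. Named were the 10 members with the highest mean, up to 6 called in each direction of each comparison, those called in 3 or more, and those nearest the CPM limit; the text describes some of these 57. Alternatives were size factors and tests of DESeq2 1.42.0, testing low genes too, fitting the 32 libraries together, a replicate block, and each library left out in turn; the share of reads outside genes as a covariate was added after seeing the data. Tables and figures were made with Python 3.11.15, pandas 2.3.3, NumPy 2.4.6, SciPy 1.17.1 and matplotlib 3.10.9.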

Additional observations from a re-analysis of the deposited data

Results flagged for a closer look

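In groups of 4 naive libraries, the highest or lowest value was checked for its distance from the other 3. This was done for the named antisense RNA rows, the share of reads outside genes, and the summed level and median deviation of the antisense RNA rows. Of 120 groups of values 8 stood apart, where chance gives about 1 in 20. In naive hsp70-1c, asRNA:CR45894 (opposite Pdh) was lowest in replicate 2 at 1041 CPM, with the others at 1383 to 1399.9 CPM. asRNA:CR45798 (opposite Rab1) was highest in replicate 4 at 334 CPM, against 300.1 to 304 CPM. asRNA:CR43957 (opposite ci) was highest in replicate 1 at 29.3 CPM, against 23.4 to 23.8 CPM. asRNA:CR44047 (opposite Adss) was highest in replicate 2 at 38.2 CPM, against 27.0 to 28.7 CPM. asRNA:CR44018 (opposite hth) was highest in replicate 1 at 2.84 CPM, against 1.80 to 1.96 CPM. asRNA:CR45620 (opposite sws), just below the limit of the rule and so no member, was lowest in replicate 1 at 1.36 CPM, against 2.55 to 2.64 CPM. In naive hsp70-4c, asRNA:CR44969 (opposite CG3164) was highest in replicate 3 at 339 CPM, against 302.99 to 306 CPM. The share of reads outside genes was lowest in naive hsp70-4c replicate 2 at 65.9%, against 67.8 to 68.1% in the other 3.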

How the results depend on the processing

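Counts of called antisense RNA rows moved by more than 1.5 times under these alternatives. With the share of reads outside genes as a covariate they were 49 among the 4 naive strains, 32 for naive hsp70- against hsp70-1c, 21 for naive w+hsp70- against hsp70-4c, 1 for hsp70-1c at 5 h and 0 for hsp70-4c at 24 h. In each of these comparisons of 2 groups the share did not overlap between the groups, so the covariate cannot be told apart from the comparison. The DESeq2 test called 2 for hsp70-1c at 24 h, 9 for hsp70-4c at 24 h and 4 for the difference of the hsp70-4c and hsp70-1c responses. With no filter on low counts 6 were called for hsp70-4c at 24 h and 12 for w+hsp70- at 5 h, and with all 32 libraries in 1 fit 2 for hsp70- at 5 h. The replicate numbers did not pair the samples: deviations of same-numbered samples had correlations of -0.45 to 0.38 over 40 pairs. With a replicate block 0 were called for w+hsp70- against hsp70- at 5 h, 5 for hsp70-4c at 24 h, 1 for hsp70- at 5 h and 9 for w+hsp70- at 5 h. DESeq2 size factors moved no count by that much.

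Leaving out each library in turn gave 70 to 99 among the 4 naive strains, 16 to 22 for naive hsp70-4c against hsp70-1c, 0 to 7 for naive w+hsp70- against hsp70-, 31 to 70 for naive hsp70- against hsp70-1c and 21 to 33 for naive w+hsp70- against hsp70-4c. It gave 6 to 12 and 3 to 9 for hsp70-4c against hsp70-1c at 5 h and 24 h, and 0 to 2 for w+hsp70- against hsp70- at 5 h. For training it gave 7 to 20 in hsp70-1c, 6 to 16 in hsp70-4c, 0 in hsp70- and 2 to 7 in w+hsp70- at 5 h, 0 in hsp70-1c and 0 to 8 in hsp70-4c at 24 h, and 0 to 1 and 0 for the differences of responses. The causes of these moves were not tested.

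Of 127 calls of named rows, 48 held under every alternative and none changed direction; 42 of the 127 missed the threshold with the covariate and 23 with the block. The rule kept 338 rows at a limit of 1 CPM, 238 at 5 CPM and 303 with TMM scaling. With 65 rows under 5 CPM, counting error limits what can be detected there.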
